A study of Mus musculus with 4 samples.

Results

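The sodium-potassium pump (Na,K-ATPase) and its FXYD regulators were followed in hyperplastic mouse mammary glands through 8 of the 25806 genes listed: Fxyd1, Fxyd2, Fxyd3, Fxyd4, Fxyd5, Fxyd6 and the beta subunit genes Atp1b1 and Atp1b3. The genes were found by symbol. The family was chosen by the normalised read counts of Fxyd2, which these same libraries had already shown to be higher in knockouts. The difference by genotype in these genes is therefore given as a description, with no test. The 2 knockout libraries came from female MMTV-PyMT mice that carried a deletion of exon 1 of miR-9. The 2 control libraries came from female MMTV-PyMT littermates with no such deletion. Both groups carried the transgene, in which the mouse mammary tumour virus promoter drives the polyomavirus middle T antigen mainly in mammary epithelium. Both were on a mixed background derived from C57BL/6, and glands of both were taken at the hyperplastic stage. Age, zygosity and the identity of the deleted gene among the 3 that encode miR-9 are not stated in the labels. Nor do the labels tie each library to an animal of its own, so errors and p-values cover only the spread between these libraries, which could be technical.

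The pump moves sodium out of the cell and potassium into it, at the cost of ATP. Its alpha subunit carries out transport, its beta subunit brings the alpha subunit to the membrane, and a small FXYD protein with 1 membrane span can bind the complex and tune its affinity for sodium and potassium. In secretory epithelia such as the mammary gland the pump sets up the sodium gradient that other transporters use. MicroRNAs such as miR-9 pair through their seed, bases 2 to 8, with sites in the 3' untranslated region (UTR) of messages and lower their level or translation.

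The sequences that define the family and the microRNA are shown first, because they show what the 6 FXYD genes share and which of the 8 messages hold a miR-9 seed match. In each of the 6 FXYD genes the 12 bases that encode the FXYD motif, in capitals, are split by an exon junction that falls after the first 10 of them. The exon after the junction has 75 bases in all 6 genes, and begins the run that encodes the membrane span. Each run below holds the last 24 bases of the exon before the junction and the 75 bases after it, on the coding strand, from GENCODE M21 transcripts of the mouse build GRCm38.
Fxyd1: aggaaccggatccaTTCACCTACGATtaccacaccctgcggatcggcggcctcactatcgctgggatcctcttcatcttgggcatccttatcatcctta
Fxyd2: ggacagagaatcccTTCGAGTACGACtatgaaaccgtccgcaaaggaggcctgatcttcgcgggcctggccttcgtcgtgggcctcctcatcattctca
Fxyd3: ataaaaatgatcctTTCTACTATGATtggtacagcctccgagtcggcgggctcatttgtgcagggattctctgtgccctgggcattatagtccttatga
Fxyd4: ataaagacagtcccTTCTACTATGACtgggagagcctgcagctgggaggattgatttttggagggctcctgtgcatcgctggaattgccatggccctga
Fxyd5: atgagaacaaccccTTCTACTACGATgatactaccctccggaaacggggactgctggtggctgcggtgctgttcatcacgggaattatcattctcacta
Fxyd6: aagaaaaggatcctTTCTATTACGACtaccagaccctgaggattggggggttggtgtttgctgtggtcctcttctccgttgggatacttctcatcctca

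Within these 99 bases Fxyd2 was most like Fxyd1, at 63.6% identical bases, and least like Fxyd3, at 54.5%. Its neighbour Fxyd6 matched it at 59.6%. The encoded proteins differ in length: Fxyd2 has 64 amino acids, Fxyd1 has 92, Fxyd6 has 94, and Fxyd5, which carries a long extracellular part, has 179. Whole transcripts, the shared core included, were also compared for runs of identical bases. The longest run of identical bases between any transcripts of Fxyd2 and Fxyd6 was 12 bases, and that between Fxyd2 and Fxyd5 was 38 bases.

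Mature miR-9-5p is identical from the 3 mouse genes Mir9-1, Mir9-2 and Mir9-3, and is given from RefSeq for GRCm38.p6 with its seed in capitals. The longest 3' UTR of each of the 8 genes was searched on the message strand for ACCAAAGA (8mer), ACCAAAG not followed by A (7mer-m8) and CCAAAGA not preceded by A (7mer-A1). Only Fxyd5 and Atp1b1 held a match, shown with the matching bases in capitals.
miR-9-5p: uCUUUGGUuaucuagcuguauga
Fxyd5 site: ggagcatgtcgACCAAAGAtggccttgaat
Atp1b1 site: tatgaaataaaACCAAAGtcacttgtttga

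The Fxyd5 match is an 8mer at position 488 of a 3' UTR of 2411 bases, and it lies in 1 of the gene's 8 coding transcripts that have a 3' UTR. The Atp1b1 match is a 7mer-m8 at position 965 of 1167 bases. Fxyd2 has a 3' UTR of 293 bases with none of the 3 words. Among 15869 tested genes with a 3' UTR, 4.5% held an 8mer and 21.9% held any of the 3 words, and their median 3' UTR length was 1095 bases. These are matches of letters in one transcript model per gene.

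The total of normalised read counts in a library ran between 15904798 and 16418668, with 22427 to 23319 genes above 0. Across genes, control 2 stood apart from the knockouts, with a correlation of log2 values of 0.953 and 0.960 to knockouts 1 and 2. The value was 0.978 between the knockouts and 0.973 between the controls. Pairing control 1 with knockout 1 gave 0.971, and pairing it with knockout 2 gave 0.972. Control 1 was therefore nearly as like each knockout as it was like control 2. The mammary epithelial keratin Krt18 had 16362 and 14455 in the knockouts and 16898 and 19500 in the controls, so a defining epithelial marker was abundant in all 4 libraries. The level of miR-9 and the deletion itself were not analysed here. In whole glands, fewer cells of a type and less RNA per cell cannot be told apart.

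Fxyd2 encodes the gamma subunit of the pump, known mainly from the kidney tubule, where it lowers the affinity of the pump for sodium. The gene (ENSMUSG00000059412, GRCm38 chromosome 9, 45399669 to 45410278, plus strand) had normalised read counts of 339 and 307 in knockout libraries 1 and 2, against 40.1 and 43.8 in control libraries 1 and 2. Both knockouts were far above both controls, and the libraries of each group lay within 1.11-fold of each other. The means were 323 ± 22.9 in knockouts and 42.0 ± 2.67 in controls (SD, n = 2 each), a 7.70-fold difference, or a log2 fold change of 2.92 (SE 0.25) on the log2(value + 1) scale. This difference is the one through which the family was chosen.

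Fxyd1, or phospholemman, is the FXYD protein of heart and skeletal muscle and is regulated by phosphorylation. Its gene (ENSMUSG00000036570, chromosome 7, 31051678 to 31057199, minus strand) had counts of 202 and 125 in knockouts and 84.2 and 49.8 in controls. Both knockouts were above both controls, but each group spread widely, with the higher library 1.61-fold above the lower in knockouts and 1.69-fold in controls. The lowest knockout was 1.49-fold above the highest control. The log2 fold change was 1.28 (SE 0.36), and it was 1.66 without control 1 and 0.91 without control 2.

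Fxyd6, or phosphohippolin, known from brain and inner ear, had the opposite order. Its gene (ENSMUSG00000066705, chromosome 9, 45370185 to 45396159, plus strand) had counts of 1252 and 797 in knockouts and 1456 and 1782 in controls. Both knockouts were below both controls, although knockout 1 was closer to control 1 than to knockout 2. The log2 fold change was -0.69 (SE 0.22), a ratio of means of 0.633.

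Fxyd3 was first found in mouse mammary tumours and had the highest normalised read count of the 6 FXYD genes. Its gene (ENSMUSG00000057092, chromosome 7, 31068172 to 31076704, minus strand) had counts of 2847 and 3142 in knockouts and 2742 and 3662 in controls, and the groups overlapped. The log2 fold change was -0.08 (SE 0.15). Its exons share 2059 bases with those of Lgi4 on the opposite strand, and since the strand setting of the counting is not given in the sources used here, reads of the pair cannot be told apart. Lgi4 was counted at 57.7 and 69.0 in knockouts and 21.6 and 7.97 in controls, far below Fxyd3.

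Fxyd5, or dysadherin, a glycoprotein known for weakening cell adhesion, also overlapped between groups. Its gene (ENSMUSG00000009687, chromosome 7, 31032722 to 31042481, minus strand) had counts of 692 and 607 in knockouts and 742 and 473 in controls, with a log2 fold change of 0.13 (SE 0.21). This is the gene with the 8mer shown above. Fxyd4, the corticosteroid hormone-induced factor of kidney and colon, was near the floor. Its gene (ENSMUSG00000004988, chromosome 6, 117933559 to 117937692, minus strand) had counts of 10.9 and 16.5 in knockouts and 12.3 and 4.98 in controls, which overlapped, with a log2 fold change of 0.70 (SE 0.62).

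The beta subunit genes had log2 fold changes nearer 0 than Fxyd2. Atp1b3 (ENSMUSG00000032412, chromosome 9, 96332655 to 96364442, minus strand) had counts of 2457 and 2782 in knockouts and 2250 and 2079 in controls. Both knockouts were above both controls by a narrow margin, the lowest knockout standing 1.09-fold above the highest control, and the log2 fold change was 0.27 (SE 0.11). Atp1b1 (ENSMUSG00000026576, chromosome 1, 164437109 to 164458355, minus strand), the widespread beta isoform and the gene with the 7mer-m8 match, had 971 and 1099 in knockouts and 829 and 1120 in controls. Its groups overlapped, with a log2 fold change of 0.10 (SE 0.16). Its exons share 575 bases with those of Nme7 on the opposite strand, so the same limit holds.

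**Figure D1:**
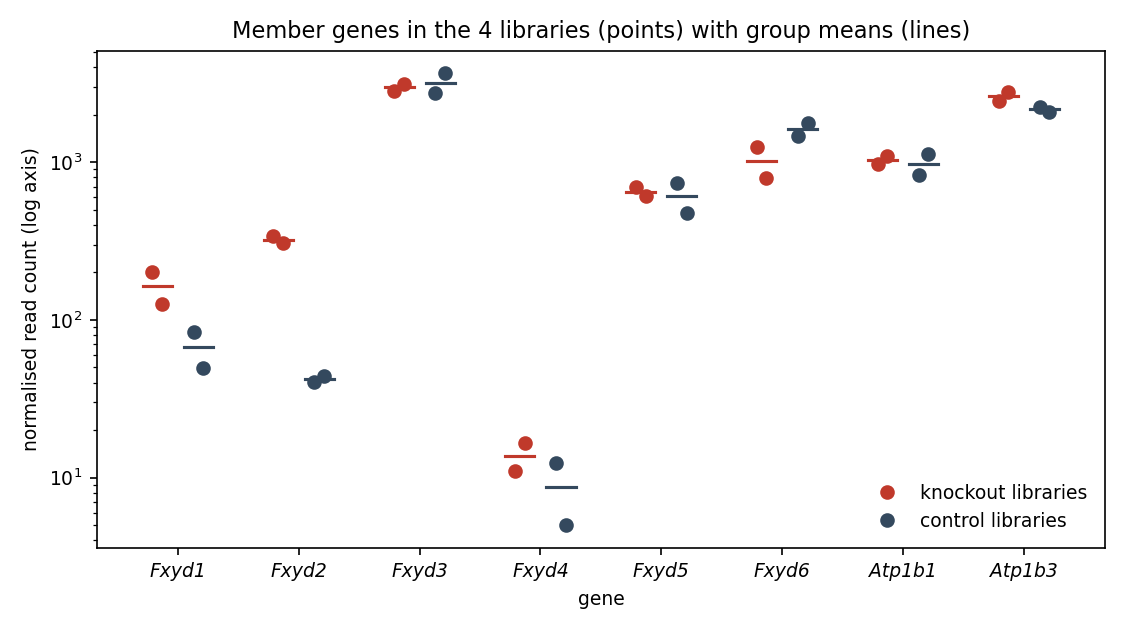
Normalised read counts (log axis) of the 8 genes, with knockout libraries in red left of control libraries in dark blue; each point is 1 library and each line a group mean. Fxyd2 has the widest gap between the groups, at 339 and 307 in knockouts against 40.1 and 43.8 in controls, and Fxyd6 is the one gene with both knockouts below both controls.

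All 8 genes passed the filter of a value of at least 1 in at least 2 libraries. In the limma fit across 22455 genes, 131 genes, or 0.583%, passed an adjusted p of 0.05, 0.414% of the tested genes being higher in knockouts. Of the 8 genes 1 passed, Fxyd2, and because the choice of genes used this contrast nothing is read from that count. Both knockouts were above both controls in 3 of the 8, Fxyd1, Fxyd2 and Atp1b3, against 25.5% of all tested genes. Both were below in 1 of the 8, Fxyd6, against 25.6%, so groups did not overlap in 4 of 8, against 51.2% of all tested genes. An unadjusted limma p below 0.05 was found for 4 of the 8, Fxyd2 among them, and for 18.0% of all tested genes. Nothing is read from this count either, for the same reason. The median log2 fold change of the 8 was 0.20, against 0.00 over all tested genes.

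With either knockout library left out, the limma fit passed no gene of any kind, Fxyd2 included. Over all 12 settings the log2 fold change of Fxyd2 ran between 2.75 and 2.99, again as a description of the values that chose it. Over the same settings that of Fxyd1 ran between 0.91 and 1.66, and this too supports nothing. The signs of Fxyd3, Fxyd5 and Atp1b1 changed with the library left out, over ranges of -0.29 to 0.13, -0.19 to 0.45 and -0.12 to 0.32, so no direction is given for them.

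The share of Fxyd2 in its family uses the counts that chose the family, so it is a description. Set against its family, Fxyd2 took a larger part of the FXYD messages in the knockout glands. It made up 6.35% and 6.14% of the summed normalised counts of the 6 FXYD genes in knockouts, against 0.789% and 0.729% in controls. The sum itself was 5343 and 4995 in knockouts and 5076 and 6015 in controls, so the groups overlapped in total while Fxyd2 did not. The Fxyd1 share was 3.78% and 2.51% in knockouts and 1.66% and 0.828% in controls. Fxyd3 and Fxyd6 together made up 76.7% and 78.9% in knockouts, and 82.7% and 90.5% in controls.

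**Figure D2:**
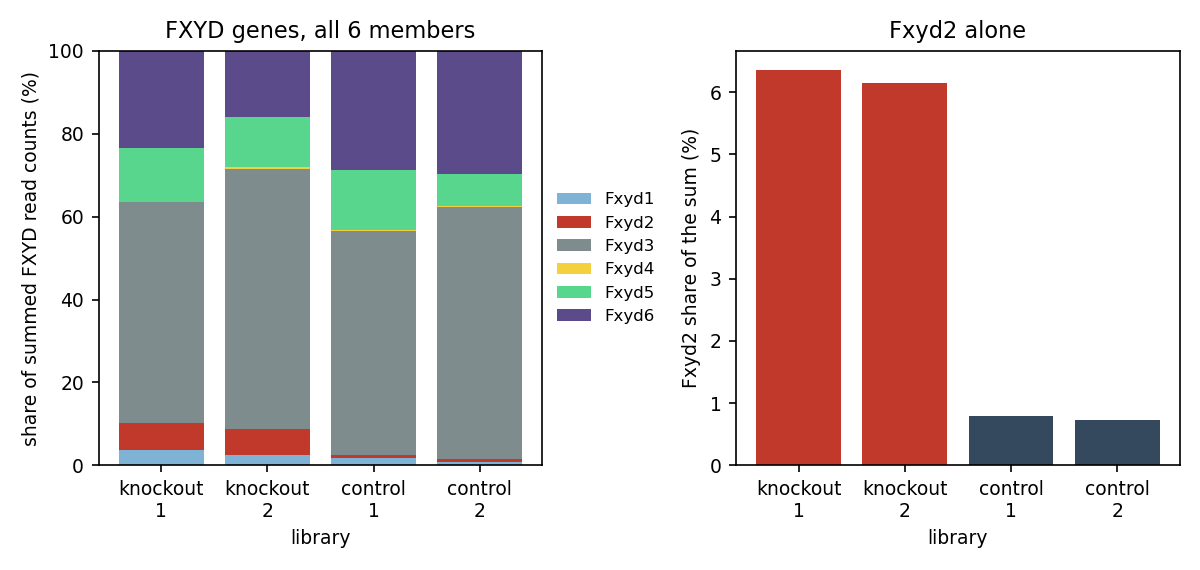
Share (%) of each FXYD gene in the summed normalised read counts of the 6 genes (left) and the share of Fxyd2 alone (right), for knockout libraries and then control libraries; each bar is 1 library. Fxyd2 stands at 6.35% and 6.14% in knockouts and at 0.789% and 0.729% in controls, while Fxyd3 and Fxyd6 make up most of every bar.

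The ratios to single relatives use the same Fxyd2 counts, so they restate that contrast and add no support. Fxyd2 stood at 11.9% and 9.77% of the Fxyd3 count in knockouts and 1.46% and 1.20% in controls. Against its chromosome 9 neighbour Fxyd6 it stood at 27.1% and 38.5% in knockouts and 2.75% and 2.46% in controls. These shares use counts and not levels per length, and each is a ratio within a library that no scaling between libraries can change. Between the beta subunit genes, Atp1b1 was 28.3% of the Atp1b1 and Atp1b3 sum in both knockouts, and 26.9% and 35.0% in controls, so the groups overlapped.

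Levels of different genes were compared per kilobase of merged exons. Atp1b3 was highest in all 4 libraries, at a mean of 1096 normalised counts per kilobase in knockouts and 906 in controls, followed by Fxyd3 at 617 and 660. Fxyd5 was the fifth in every library, at 155 in knockouts and 145 in controls, and Fxyd4 last, at 7.01 and 4.42. Atp1b1, at 336 in knockouts and 316 in controls, and Fxyd6, at 249 and 394, changed places between the groups. In controls their libraries overlapped, with 269 and 363 for Atp1b1 and 354 and 434 for Fxyd6.

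Fxyd2 and Fxyd1 filled the sixth and seventh places. In knockouts Fxyd2 had 84.7 and 76.6 normalised counts per kilobase and Fxyd1 had 92.4 and 57.3, so the pair overlapped. In controls Fxyd2 averaged 10.5 and was below Fxyd1, at 38.5 and 22.8, in both libraries. The order depends on the length used. With the length of the first listed transcript, an alternative added after the data were seen, Fxyd3 was highest at 6821 per kilobase in knockouts and 7294 in controls, and Fxyd2 stood at 511 and 66.4.

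The values of other pump genes lay on both sides of the controls. Of 14 genes of other pump subunits and partners, 12 were listed in the files and 11 were tested, and limma passed none, with 4 at an unadjusted p below 0.05, against 18.0% of all tested genes. Both knockouts were above both controls in 4, against 25.5% of all tested genes, below in 3, against 25.6%, and overlapped in 4. The median log2 fold change was 0.63, against 0.00 over all tested genes. It was 0.94 without control 1 and 0.16 without control 2.

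Atp1b2, the glial beta isoform, had 90.5 and 94.2 in knockouts and 42.1 and 11.96 in controls, at 1.98 (SE 0.56, limma adjusted p = 0.133). Every knockout was above every control, control 2 was the lowest library, and the 2 controls lay 3.52-fold apart. Its log2 fold change was 2.85 without control 1 and 1.11 without control 2.

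Nkain4, which encodes a membrane protein that binds the pump, had 6.96 and 13.6 in knockouts and was listed at 0 in both controls (limma adjusted p = 0.0876), so no fold is given. The brain regulator Fxyd7 was near the floor, at 10.9 and 2.91 in knockouts and 5.14 and 1.99 in controls, and the groups overlapped. Nkain1 had 24.9 and 10.7 in knockouts and 27.7 and 30.9 in controls, and Atp12a, the non-gastric proton-potassium pump, had 8.95 and 10.7 in knockouts and 19.5 and 14.9 in controls. Both genes had every knockout below every control and neither passed limma, at adjusted p = 0.444 and 0.467. Atp1a4, Nkain2 and Atp4a had no value above 3.88 in any library, Nkain3 did not pass the filter, and Atp1b4 and Atp4b were not analysed here.

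**Figure D3:**
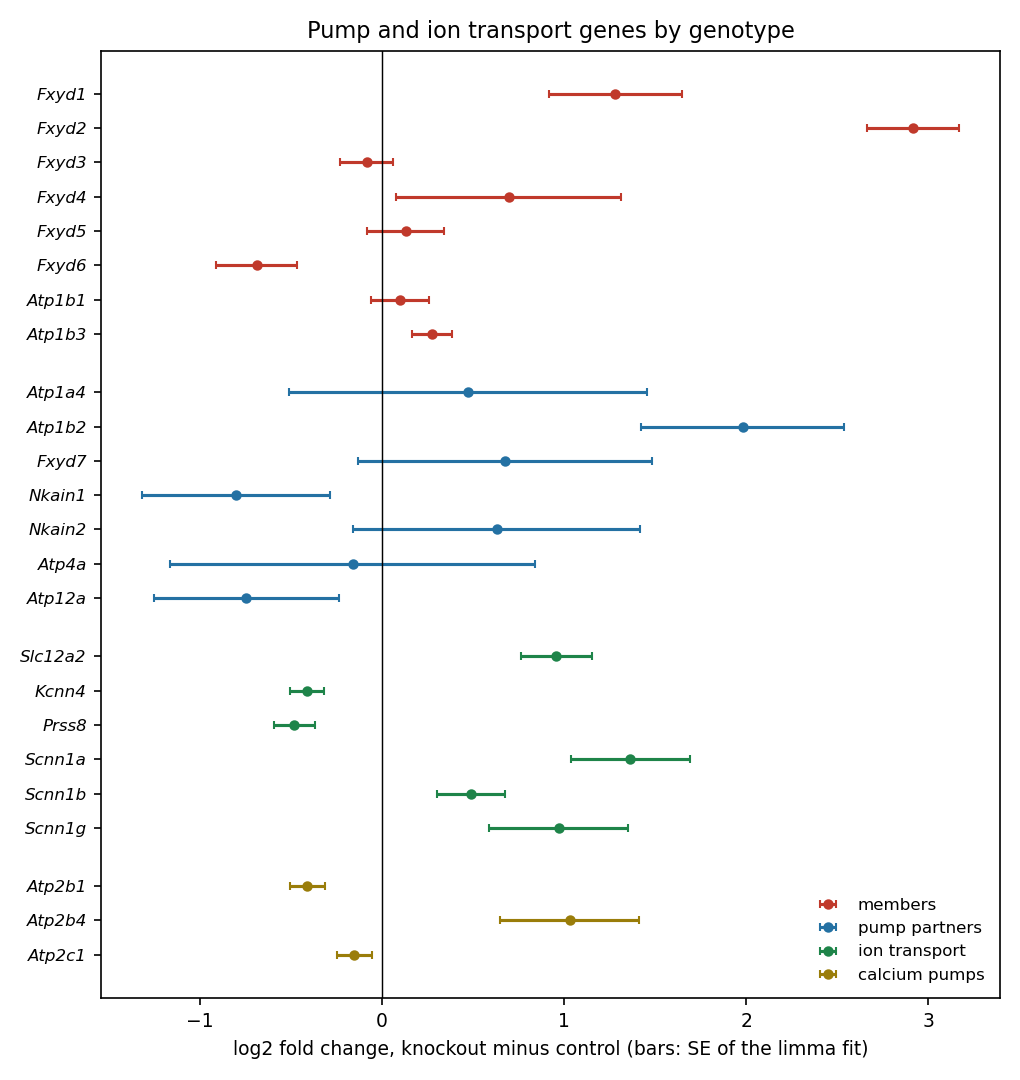
Log2 fold change, knockout minus control, with the SE of the limma fit, for the 8 genes (red), tested pump partners (blue), ion transport genes (green) and calcium pumps (ochre). Among the genes drawn, Fxyd2 at 2.92 lies farthest to the right and Atp1b2 follows at 1.98 with a wider bar. Nkain4 is left out because both controls are at 0, and some other tested pump partners are not drawn.

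Fxyd2 regulates a pump whose gradient feeds other transporters, so 39 genes of epithelial ion transport were read beside it. Of the 38 tested, limma passed none, with 15 at an unadjusted p below 0.05, against 18.0% of all tested genes. Both knockouts were above both controls in 16, against 25.5% of all tested genes, below in 10, against 25.6%, and overlapped in 12. The median log2 fold change was 0.00. Slc12a2, the sodium-potassium-chloride cotransporter that uses the pump's gradient, had 17961 and 13937 in knockouts and 9710 and 6832 in controls, 0.96 apart on the log2 scale (SE 0.20, limma adjusted p = 0.0862). Kcnn4, a calcium-activated potassium channel, had 6221 and 6063 in knockouts and 8146 and 8202 in controls (-0.41, limma adjusted p = 0.0900). Prss8, a protease that activates the epithelial sodium channel, had 1406 and 1291 in knockouts and 1764 and 2005 in controls (-0.48, limma adjusted p = 0.0972).

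The 3 subunits of the epithelial sodium channel were named here after their values were seen. All had both knockouts above both controls, against 25.5% of all tested genes. Of the 38 tested ion transport genes 16 had that order and 10 had the opposite order. Scnn1a had 779 and 645 in knockouts and 388 and 194 in controls, Scnn1b had 594 and 436 in knockouts and 383 and 343 in controls, and Scnn1g had 56.7 and 60.2 in knockouts and 36.0 and 23.9 in controls. None passed limma, at adjusted p = 0.121, 0.229 and 0.243. The median log2 fold change of the tested ion transport genes was 0.06 without control 1 and 0.02 without control 2. That of Slc12a2 was 1.21 without control 1 and 0.70 without control 2.

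The calcium pumps are relatives of the sodium pump and have small membrane regulators of their own. Of 13 genes on this list, 10 were listed in the files and 9 were tested. Limma passed none, with 2 at an unadjusted p below 0.05, against 18.0% of all tested genes. Both knockouts were above both controls in 2, against 25.5% of all tested genes, below in 3, against 25.6%, and overlapped in 4. The median log2 fold change was -0.15. Atp2b1, the plasma membrane calcium pump, had 1912 and 1913 in knockouts and 2603 and 2480 in controls (-0.41, limma adjusted p = 0.0994). Atp2b4, another plasma membrane pump, had 203 and 149 in knockouts and 123 and 57.8 in controls (1.03, limma adjusted p = 0.223). Atp2c1, the Golgi pump, had 1750 and 1729 in knockouts and 1929 and 1933 in controls (-0.15, limma adjusted p = 0.447). Without control 1 the median of the list was -0.12 and Atp2b4 stood at 1.57. Without control 2 they stood at -0.38 and 0.49.

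Fxyd2 lies directly behind Fxyd6 on the same strand of chromosome 9, with 3509 bases between them, and the log2 fold changes of the pair had opposite signs, 2.92 and -0.69. No other tested gene within 100 kb of Fxyd2 passed limma. Tmprss13, a membrane serine protease, had 1015 and 906 in knockouts and 1083 and 1642 in controls (-0.48, limma adjusted p = 0.266). Its log2 fold change was -0.78 without control 1 and -0.18 without control 2. Dscaml1, a neuronal adhesion gene, was near the floor, at 6.96 and 3.88 in knockouts and 2.05 and 0.996 in controls (limma adjusted p = 0.376). The antisense gene 1700003G13Rik was also near the floor, with no value above 6.16 in any library.

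On chromosome 7, Fxyd5, Fxyd7 and Fxyd1 follow each other on the minus strand, with 31 bases between Fxyd5 and Fxyd7 and 210 bases between Fxyd7 and Fxyd1. Fxyd3 lies 10972 bases beyond Fxyd1. The 3 members of this cluster had log2 fold changes of 1.28 for Fxyd1, 0.13 for Fxyd5 and -0.08 for Fxyd3. Of the 14 tested genes near Fxyd2 or near the cluster that are not among the 8, limma passed none, with 4 at an unadjusted p below 0.05, against 18.0% of all tested genes, and a median log2 fold change of 0.09. Their median was 0.09 without control 1 and 0.15 without control 2. Lgi4, a gene of peripheral glia named after its values were seen, lies beyond Fxyd1, overlaps the end of Fxyd3, and differed by 2.17 on the log2 scale (SE 0.52, limma adjusted p = 0.0993).

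**Figure D4:**
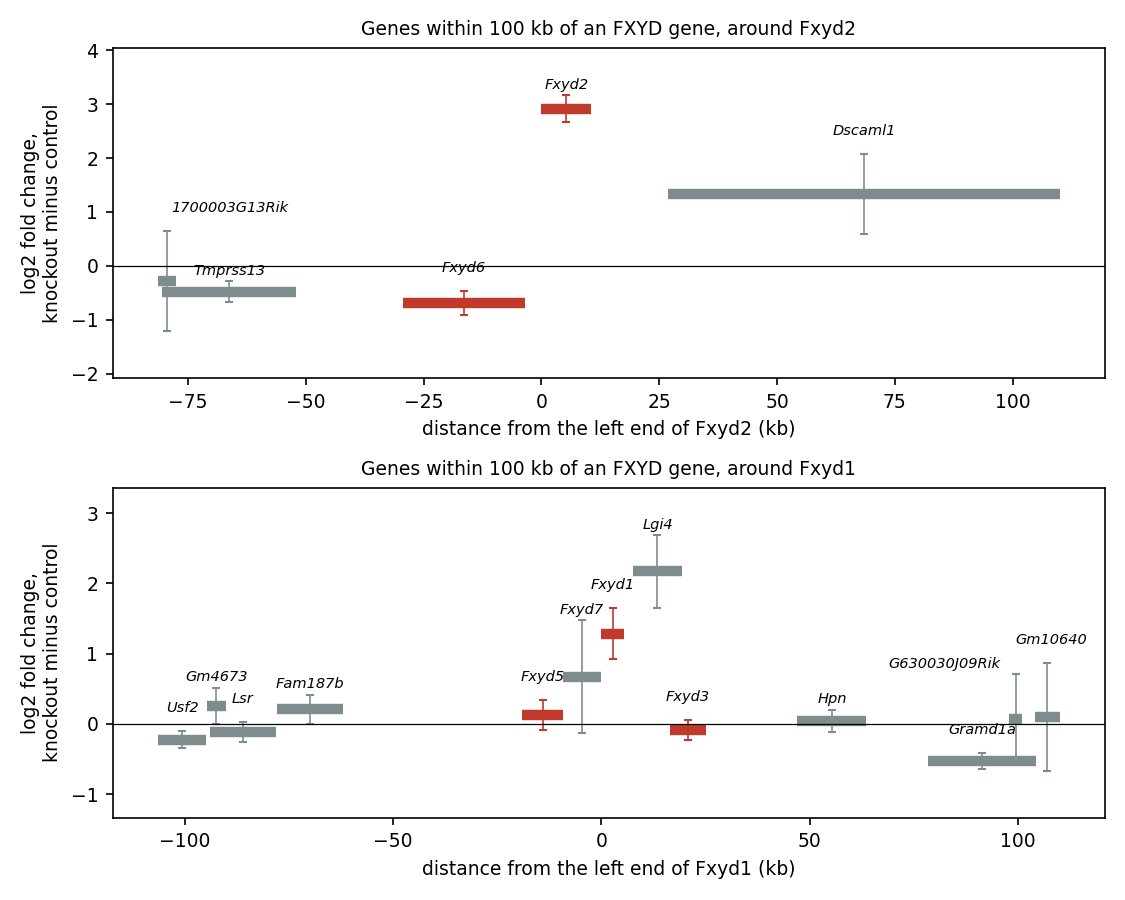
Log2 fold change, knockout minus control, with the SE of the limma fit, of genes within 100 kb of Fxyd2 (top) and of the chromosome 7 FXYD genes (bottom), against distance in kb from the left end of Fxyd2 or Fxyd1; bar length is gene length, the 8 genes are red, and Dscaml1 is drawn only in part. Fxyd2 at 2.92 stands above its neighbour Fxyd6 at -0.69.

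The genes whose profile over the 4 libraries was most like that of Fxyd2 were sought among 11738 genes with a mean of at least 100, by the distance between centred log2 values. This likeness is a description over 4 libraries, and genes that differ by genotype will be near each other. Slc5a5, the sodium-iodide symporter, was nearest at 0.396, with 899 and 798 in knockouts and 113 and 86.7 in controls. Pgr, the progesterone receptor gene, lay at 0.582, with 550 and 581 in knockouts and 62.7 and 47.8 in controls.

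Cited1, a co-regulator of transcription in hormone-sensing luminal cells, lay at 0.586, with 2105 and 2192 in knockouts and 371 and 232 in controls. Alx4, a homeobox gene, lay at 0.646, with 216 and 152 in knockouts and 37.0 and 26.9 in controls. Ighg1, an antibody constant gene with near-identical relatives and so uncertain, lay at 0.542, with 807 and 624 in knockouts and 127 and 140 in controls. In all 5 genes every knockout was far above every control, which follows from their choice by likeness to Fxyd2 and supports nothing.

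**Figure D5:**
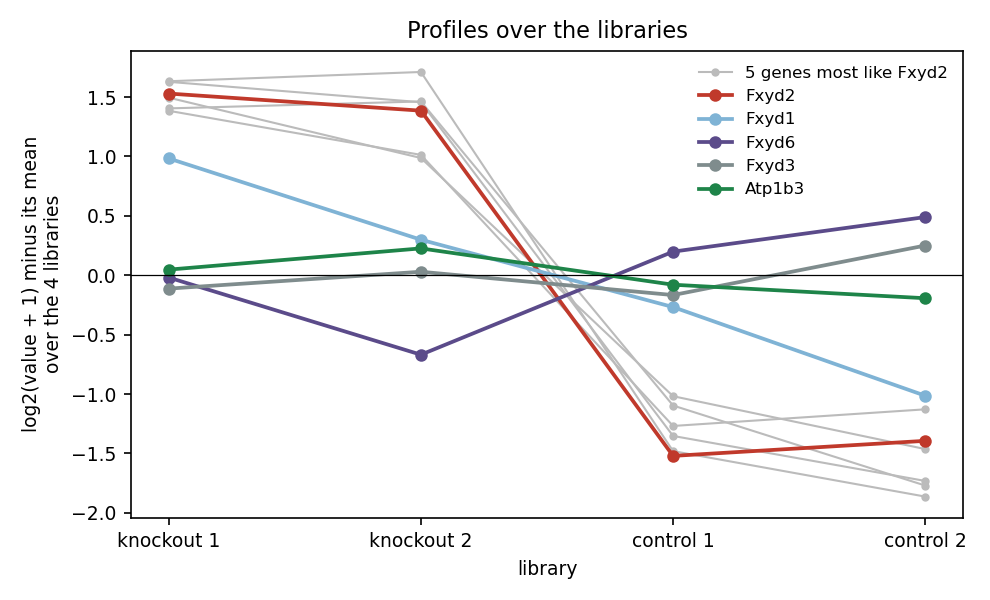
Centred log2(value + 1) of Fxyd2 (red), Fxyd1, Fxyd6, Fxyd3 and Atp1b3 and of the 5 genes most like Fxyd2 (grey), over knockout 1, knockout 2, control 1 and control 2. The grey lines, chosen for their likeness, follow Fxyd2 down between the knockouts and the controls. Fxyd1 slopes over all 4 libraries, and Fxyd6 runs the other way.

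Markers of cell types that could carry these messages were read beside the values of Fxyd2. Over all tested genes, 25.5% had both knockouts above both controls and 25.6% had both below, and the counts of each marker list stand beside these shares. Of 12 markers of hormone-sensing luminal cells, 10 had both knockouts above both controls and none had both below, with summed counts of 26050 and 23405 in knockouts and 15563 and 9734 in controls. Of these Tnfsf11 was at 0 in control 2. Of 10 general epithelial markers, 8 had both knockouts below both controls and 1 had both above. Their sums were 96961 and 89876 in knockouts and 99639 and 101534 in controls. The part of these cell types in the Fxyd2 difference was not tested.

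Beside Fxyd1 and Atp1b2, the lists of adipocytes, muscle, nerve and basal cells were read. Of 9 basal and myoepithelial markers 7 had both knockouts above both controls and 1 had both below. Their sums were 30436 and 34502 in knockouts and 19489 and 9492 in controls. Of 8 adipocyte markers 4 had both knockouts above, with sums of 29120 and 9268 in knockouts and 13306 and 6132 in controls. Of 9 skeletal muscle markers none had both knockouts above and none had both below. Their sums were 217 and 260 in knockouts and 533 and 456 in controls. The mean of their centred log2 values was -0.48 and -0.52 in knockouts and 1.72 and -0.72 in controls 1 and 2. Only control 1 was high on that scale. Myh1 and Myh4 were at 0 in knockout 1 and control 2. Of the 8 listed Schwann cell and nerve markers 5 had both knockouts above and 1 had both below. Their sums, mostly from 1 gene, were 10949 and 12070 in knockouts and 11609 and 11210 in controls. The mean of their centred log2 values, which weighs each gene alike, was 0.40 and 0.19 in knockouts and -0.24 and -0.34 in controls.

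Of the 5 listed peripheral neuron markers 3 had both knockouts above, with sums of 52.7 and 83.5 in knockouts and 29.8 and 18.9 in controls. Among these Scn10a was at 0 in both controls. Of the 8 listed salivary gland markers 2 had both knockouts above and 1 had both below. Their sums, mostly from 1 gene, were 9507 and 8044 in knockouts and 10458 and 12897 in controls. The mean of their centred log2 values was 0.26 and 0.03 in knockouts and -0.36 and 0.08 in controls. Bpifa2, Dcpp2, Dcpp3 and Smr3a were at 0 in at least 1 library. The part of these cell types in the differences of Fxyd1, Fxyd2 and Atp1b2 was not tested.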

How the data were processed

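The authors deposited a normalised signal for each gene and library. In each of the 4 libraries every value was a whole multiple of 1 step, within a tolerance of 1e-06, as read counts divided by 1 factor per library would be. The steps were 0.9949 and 0.9712 in knockouts and 1.0274 and 0.9964 in controls. Per the submitters' processing notes, the names Bowtie 0.12.2, GRCm38, mm10 and hg38 belong to the study's processing, in roles not stated there. How reads were counted, whether strand was used, and how the factors were made are not given in the sources used here. Per the labels' protocols, total RNA went into TruSeq libraries sequenced on a NovaSeq instrument.

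For testing, 1 was added to each value before the log2. The fit used limma 3.58.1 (R 4.3.3), with its trend and robust options and genotype alone in the model, and Benjamini-Hochberg adjustment over the 22455 genes with a value of at least 1 in at least 2 libraries. Adding 1 understates the change of low genes. No count test was run, since the factors could not be accepted as recovered reads for 2 of the libraries. With 2 libraries a group, the smallest two-sided p of an exact permutation test is 0.33. Since values were scaled, a change common to most genes would not be seen. No counting intervals were computed. The fit was tested on simulated data.

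The 8 genes and all lists were chosen with earlier results of these data known. Named genes were the 8, all pump partners, the 3 tested genes with the smallest unadjusted p of each other functional list, tested genes within 100 kb of Fxyd2, and the 5 genes most like Fxyd2 among those with a mean of at least 100. Coordinates are those of the files. The files' gene lengths equal merged exon lengths in GENCODE M21 for all 20 genes compared. Seed words were sought in the longest annotated 3' UTR. Other lists read were macrophages, T and NK cells, B and plasma cells, fibroblasts, endothelium, alveolar cells and erythroid cells. Some genes of the lists are counted in them but are not reported here by name.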

Additional observations from a re-analysis of the deposited data

How the results depend on the processing

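Genes past the limma threshold numbered 131, and 33 with a pseudocount of 0.1, 332 without the filter, 66 with a value of at least 10 in at least 2 libraries, 257 after quantile normalisation and 347 with library weights, against 0 to 2361 with 1 library left out (2361 without control 1, 0 without either knockout). Rescaling to equal totals gave 185. Among the 8 genes the count past the threshold was 1, and 0 to 2 with 1 library left out. For the left-out libraries it was 0 to 2 for pump partners, 0 to 9 for ion transport genes, 0 to 2 for calcium pumps and 0 to 4 for neighbouring genes, the highest each time without control 1. The log2 ratio of Fxyd2 to the FXYD sum differed by 3.04 between the groups, and by 3.03 when set against Fxyd3 alone. Both use the Fxyd2 counts that chose the family. A further planned denominator is not used here. The median of the neighbouring genes was 0.09, and -0.03 after quantile normalisation. With a library left out, some genes changed sign, among them Fxyd3, Fxyd5 and Atp1b1 as given above and, near the floor, Atp1a4 (-0.54 to 0.98), Fxyd7 (-0.13 to 1.48), Atp4a (-0.47 to 0.98) and 1700003G13Rik (-1.20 to 0.37). The cause was not tested. Where a group was left with 1 library, that library was taken to vary like the other group.

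Whether the replicate numbers mark anything shared between the groups is not known, since the labels pair no animals. Same-numbered libraries deviated together at a correlation of 0.118, but 2 pairs are too few to decide. With the number as a replicate block, 367 genes passed, among them 1 pump partner and 2 ion transport genes (Slc12a2 and Scnn1a).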

Other observations

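Other cell type lists were read only as background, and no test was run on them. Over all tested genes, 25.5% had both knockouts above both controls and 25.6% had both below. Of 8 macrophage markers 7 had both knockouts above, with sums of 16744 and 13995 in knockouts and 11885 and 9909 in controls. Of 8 T and NK cell markers 6 did, with sums of 495 and 393 in knockouts and 248 and 272 in controls, and of 8 B and plasma cell markers 5 did, with sums of 7450 and 4720 in knockouts and 2364 and 1475 in controls, with Cr2 and Ms4a1 at 0 in at least 1 library. Of 5 erythroid markers 4 did, with sums of 3618 and 2739 in knockouts and 1138 and 1353 in controls. Fibroblast markers did so in 2 of 8, with sums of 44223 and 29784 in knockouts and 31641 and 16387 in controls, and endothelial markers in 1 of 8, with sums of 2506 and 1954 in knockouts and 1963 and 1058 in controls. Of 10 alveolar luminal markers 1 had both knockouts above and 4 had both below, with sums of 161546 and 228503 in knockouts and 229628 and 246764 in controls.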
